A study of Mus musculus with 6 samples.

Results

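Expression of the amino acid response genes of ATF4 was examined in early blood progenitors that had lost Cebpa. The genes were chosen as known targets of ATF4 acting with C/EBPγ, and the list holds 39 genes. They encode regulators and feedback proteins, enzymes that make amino acids and one-carbon units, amino acid transporters and aminoacyl-tRNA synthetases. Of these, 36 had a row in the array table that named a single gene, out of 19938 genes with such a row. Pycr1, Aars and Mars were not analysed here. Rows were selected on 1 measured value, the mean over all 6 arrays, where a gene had several rows and the highest was kept. Among the members this concerned Iars alone, whose rows averaged 8.23 (kept) and 8.15 (not kept).

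The cells were LSK CD150- cells, which lack mature lineage markers, carry Sca-1 and Kit, and comprise early progenitors from which the CD150-positive stem cells have been removed. They were sorted from bone marrow of 3 Cebpa fl/fl;Mx1Cre mice, called deleted below, and of 3 Cebpa fl/fl mice, the controls. All 6 mice carried loxP-flanked Cebpa alleles, all received pIpC, a double-stranded RNA that switches on the Mx1 promoter through interferon, and all were taken at day 18. Each mouse had an array of its own (Affymetrix Mouse Gene 1.0 ST), which gives n = 3 animals per genotype. No source used here gives their ages. The Mx1 promoter is active in many tissues besides blood, and the controls lacked the transgene, so the effects of Cre and of losing Cebpa cannot be told apart. The labels call the mice female, whereas the Y-linked Kdm5d and Eif2s3y read 8.04 to 8.49 and Xist 4.46 to 5.13 on the log2 scale over the 6 arrays, which goes against that label in both genotypes.

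ATF4 is a transcription factor whose protein is made when the translation factor eIF2α is phosphorylated, as in cells short of amino acids. It binds DNA as a heterodimer, often with a C/EBP protein such as C/EBPγ, at composite sites that join a C/EBP to an ATF half-site. Its targets restore amino acid supply and tRNA charging, and some, such as Trib3 and Ppp1r15a, switch the response off again. Because ATF4 is controlled mainly at translation, its own transcript need not follow its activity. The comparison asks whether these genes followed the higher level of Cebpg, the gene of C/EBPγ, after Cebpa deletion.

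No ATF4 response gene passed the test. With limma at an adjusted p threshold of 0.05 over all genes, 0 of 36 members were higher and 0 lower in deleted samples, where 1.43% of all genes tested passed. At an unadjusted p under 0.05 there were 5 members, or 13.9%, against 15.9% of all genes tested. The smallest adjusted p among the members was 0.116. The members' log2 fold changes, deleted minus control, ran from -0.53 to 0.51 with a median of 0.11, beside a median of 0.03 over all genes. Positive values were found for 28 of 36 members (77.8%) and for 56.5% of all genes tested. The arrays differed in this. On deleted a, b and c, 28, 19 and 28 members lay above the control mean of their gene. On control a, b and c it was 21, 14 and 22. Each value comes from a bulk sample, in which fewer cells of a type and less RNA per cell cannot be told apart.

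Markers of the sorted cells and of other cell types were checked on the same arrays. Slamf1, which encodes CD150, read 3.94 to 4.86 in deleted samples and 3.48 to 3.93 in controls, near the low end of the table. Kit fell in deleted samples (9.23 to 9.59, against 10.02 to 10.31 in controls), Flt3 fell and Cd48 rose too, and Ly6a was not analysed here. Of 8 neutrophil markers S100a8, S100a9 and Camp fell, with log2 fold changes of -3.51, -3.37 and -0.97. The mean over the list was 6.12 to 6.25 on deleted arrays and 7.17 to 7.39 on control arrays. Ngp (-0.61), Elane (-0.57), Ltf (-0.19), Retnlg (0.05) and Mpo (0.25) did not pass, so the fall was not uniform over the list. Of 6 mast cell and basophil markers Cpa3 and Gzmb rose, with list means of 6.69 to 7.28 on deleted arrays and 5.87 to 5.92 on control arrays. The others did not pass, with log2 fold changes of 0.53 for Ms4a2, 0.09 for Mcpt8, -0.02 for Hdc and -0.07 for Fcer1a. Every deleted value of Ms4a2 lay above every control. Ms4a2 and Fcer1a, which define these cells, and Hdc read below 6.20, the median of all values, on all arrays. Such a level does not show that a marker is absent. Of 6 stromal and endothelial markers Pdgfrb rose, with list means of 6.67 to 6.69 on deleted and 6.39 to 6.42 on control arrays. Pecam1 did not pass (log2 fold change 0.51, limma adjusted p = 0.103). Neither did Cdh5, Kdr, Cxcl12 and Col1a1, with log2 fold changes of 0.10, 0.06, 0.01 and -0.04. None of the measured monocyte, erythroid, B cell or T and NK cell markers passed. Log2 array values have no true zero, and the part of these markers in the members' values was not tested.

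The promoter windows show which members carry the letters of a composite C/EBP-ATF site close to the gene start. RefSeq windows of GRCm38.p6, from 250 bases before to 50 bases after each gene's start, were searched on both strands for TGATGNAA, where N is any base. Of the 32 member genes with a window, 13 held the motif (40.6%), against 4.51% of 27025 genes with a window. With TGATGCAA in its place, 10 of 32 members (31.2%) and 1.03% of all genes held it. The list was assembled from known ATF4 targets, so these shares are no independent evidence, and a match is a description of letters and not of binding. The members without a window in the table were Cth, Slc7a5, Slc1a5, Cars, Lars, Nars and Wars. The 8 measured holders with the largest absolute fold change are shown as 30-base stretches, each on the strand that reads TGATGNAA, with the motif and, in Slc7a11, its reverse complement in capitals.
Vldlr (chr19:27216809-27216838, minus strand): gctaggagcgcTGATGCAActattgctgct
Yars (chr4:129189895-129189924, plus strand): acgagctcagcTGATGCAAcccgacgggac
Nupr1 (chr7:126625562-126625591, plus strand): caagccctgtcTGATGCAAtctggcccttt
Slc1a4 (chr11:20332699-20332728, plus strand): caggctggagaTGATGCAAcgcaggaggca
Tars (chr15:11399655-11399684, plus strand): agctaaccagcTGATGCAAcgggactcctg
Gars (chr6:55037960-55037989, minus strand): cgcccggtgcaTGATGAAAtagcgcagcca
Slc7a11 (chr3:50443652-50443681, minus strand): gcTGATGCAAacctggagaatTTGCATCAt
Iars (chr13:49682126-49682155, minus strand): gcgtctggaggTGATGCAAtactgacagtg

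All of these except Gars held the TGATGCAA form. Slc7a11 was the only member whose printed stretch carried the motif on both strands, at positions -66 to -59 and -47 to -40, counted from the gene start. In Vldlr the motif lay at -200 to -193 and in Nupr1 at -110 to -103. In Yars and Iars it lay just after the start, and in Slc1a4 across it. Trib3, Chac1 and Asns also held the motif, as did Pycr1 and Aars, which were not analysed for expression. For wider context, the 250 bases before the start are given for the 3 holders shown whose motif lies farthest from it, Vldlr, Nupr1 and Slc7a11, on the strand of the gene, with the motif in capitals in either orientation.
Vldlr (chr19:27216770-27217019, plus strand): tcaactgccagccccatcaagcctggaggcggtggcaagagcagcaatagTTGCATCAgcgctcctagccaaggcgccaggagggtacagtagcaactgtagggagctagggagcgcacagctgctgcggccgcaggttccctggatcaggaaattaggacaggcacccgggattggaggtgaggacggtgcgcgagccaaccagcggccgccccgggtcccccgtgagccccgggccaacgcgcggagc
Nupr1 (chr7:126625471-126625720, minus strand): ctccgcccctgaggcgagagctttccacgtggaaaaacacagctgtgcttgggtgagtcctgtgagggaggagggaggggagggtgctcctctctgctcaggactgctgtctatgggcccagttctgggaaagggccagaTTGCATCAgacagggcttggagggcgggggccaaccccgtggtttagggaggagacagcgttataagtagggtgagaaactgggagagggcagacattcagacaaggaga
Slc7a11 (chr3:50443614-50443863, minus strand): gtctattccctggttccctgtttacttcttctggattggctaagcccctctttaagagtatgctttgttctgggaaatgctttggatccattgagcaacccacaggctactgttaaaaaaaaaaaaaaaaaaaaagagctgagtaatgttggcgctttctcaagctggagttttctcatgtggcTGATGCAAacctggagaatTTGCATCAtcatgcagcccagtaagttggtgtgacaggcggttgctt

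Fold changes of holders and non-holders of the motif overlapped. The 11 measured holders had log2 fold changes of -0.21 to 0.49 with a median of 0.15, and 10 of them were positive. The 18 measured members with a window but no TGATGNAA ran from -0.27 to 0.51 with a median of 0.05, and 12 of them were positive. No member of either kind passed the limma test. Sequence outside the windows was not searched, so members without the motif there may carry it elsewhere.

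Cebpa, the deleted gene, read 6.37, 5.82 and 6.09 on the log2 scale in deleted samples and 7.84, 7.85 and 7.73 in controls. Its fold change of -1.71 ± 0.14 (SE) passed the limma test (adjusted p = 0.000883), but where its probes lie relative to the deleted part is not stated in the sources used here. Cebpg read 10.31, 10.19 and 10.42 in deleted samples, against 9.71, 9.39 and 9.63 in controls. All deleted values lay above all controls, and the log2 fold change was 0.73 with a 95% interval of 0.46 to 1.00 (limma adjusted p = 0.0240). That call was lost without control b or any single deleted array, with an adjusted p of up to 0.0881. By exact permutation (two-sided) the Cebpg values gave p = 0.1, which is the lowest p possible with 3 arrays per genotype. Among the other genes of the family, Cebpd rose by 0.55 ± 0.10 (SE, limma adjusted p = 0.0336). Cebpb, which also pairs with ATF4, had a log2 fold change of 0.70 ± 0.17 (SE) that did not pass (limma adjusted p = 0.0909). Ddit3, which encodes the stress-induced C/EBP protein CHOP and is itself an ATF4 target, read 8.28, 8.61 and 8.11 in deleted samples and 8.24, 8.40 and 8.35 in controls, with a log2 fold change of 0.01. Cebpe, a factor of late granulocytes, had a log2 fold change of 0.02.

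Atf4 itself read 8.04, 7.84 and 8.06 in deleted samples and 8.03, 7.72 and 7.78 in controls. The groups overlapped, with a log2 fold change of 0.13 ± 0.12 (SE, 95% interval -0.14 to 0.40, limma adjusted p = 0.657). The interval of Atf4 ended below the lower bound of that of Cebpg. Atf5, a related factor that is also controlled through eIF2α, had a log2 fold change of 0.04 (95% interval -0.22 to 0.30).

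**Figure D1:**
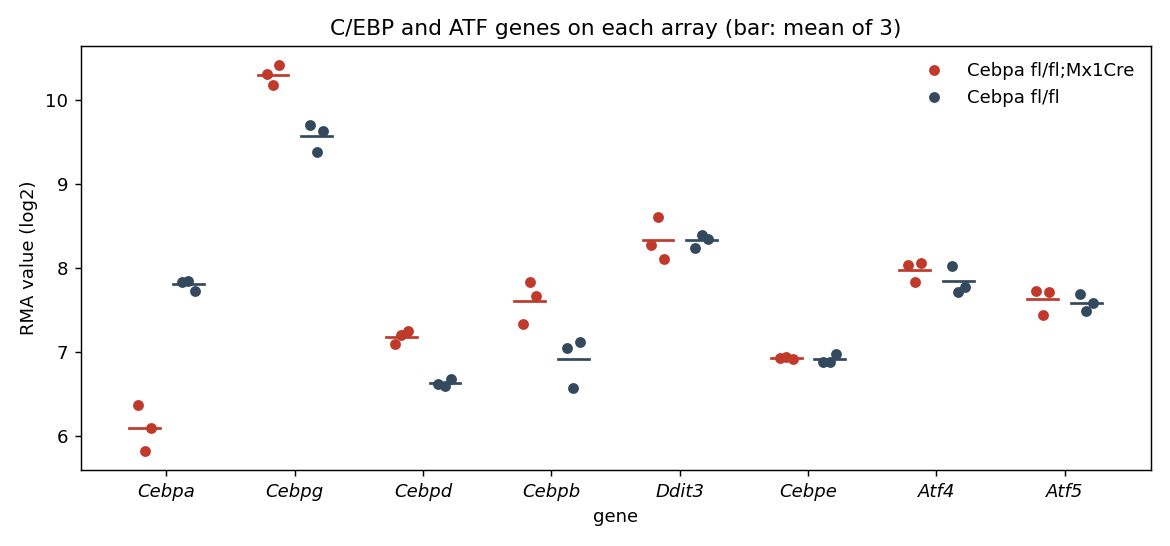
RMA values (log2, vertical axis) of the 6 C/EBP genes, Atf4 and Atf5 on each array, with 3 deleted (Cebpa fl/fl;Mx1Cre) points to the left of 3 control (Cebpa fl/fl) points and a bar at each mean. Cebpa is lower and Cebpg, Cebpd and Cebpb are higher in deleted samples without overlap, while the groups overlap for Atf4, Atf5, Ddit3 and Cebpe. Heights are not comparable between genes.

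The intervals of the members were set beside the fold change of Cebpg. Their standard errors ran from 0.09 to 0.25, and the median distance from the estimate to the end of the 95% interval was 0.27 on the log2 scale. The interval of 33 of 36 members ended below 0.73, the estimate for Cebpg. The exceptions were Phgdh (0.82), Vldlr (1.02) and Mthfd2 (0.79). For 25 members the interval ended below 0.46, the lower bound for Cebpg. Cebpg was picked as comparator with its rise in these same data known, so its estimate may be high. The counts concern only changes as large as that of Cebpg, and do not show whether members followed it with smaller ones. Smaller changes are less well resolved, since the smallest absolute log2 fold change among all genes that passed was 0.49. The intervals of 31 members included 0.

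**Figure D2:**
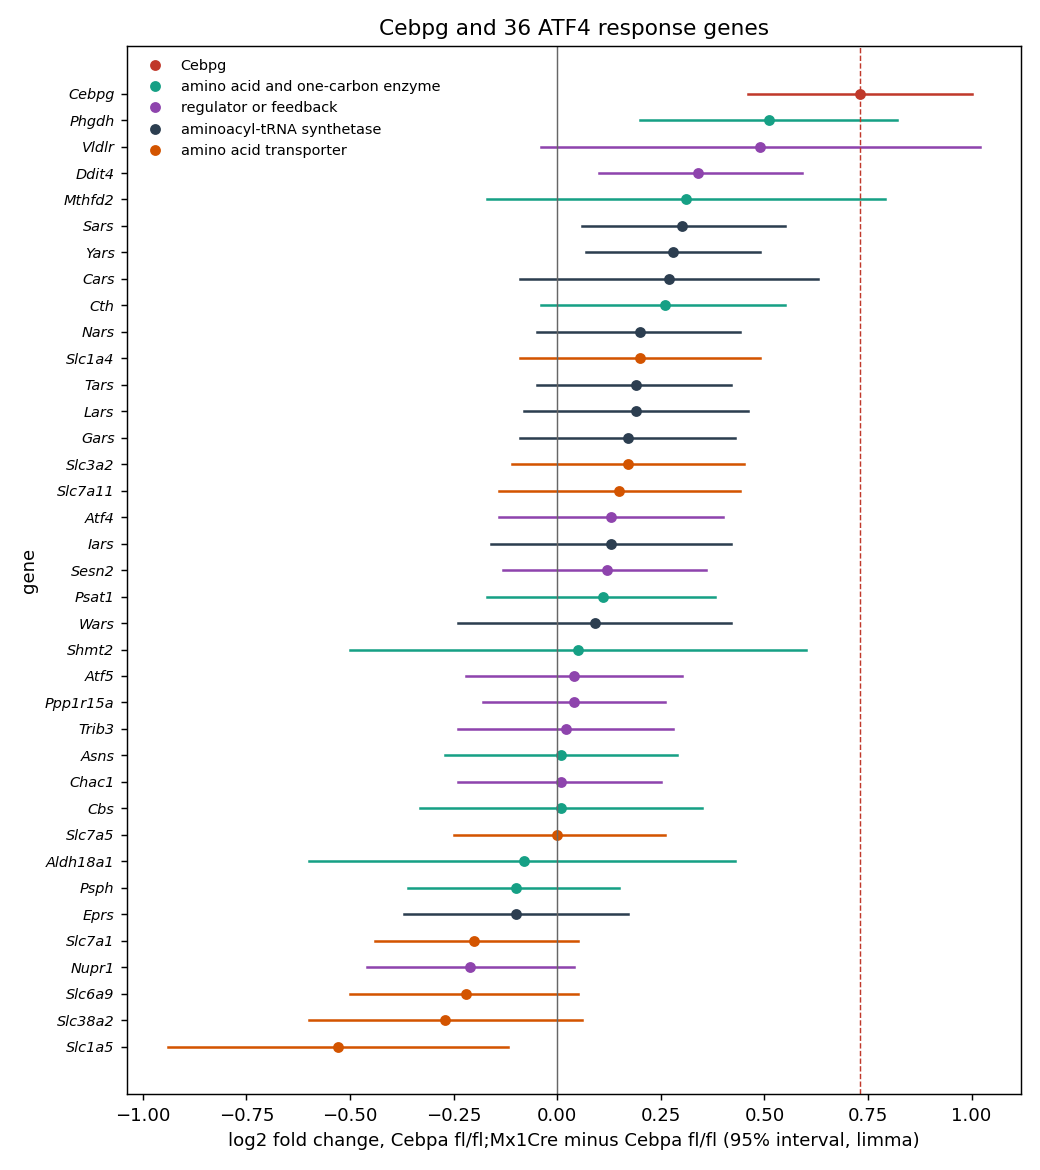
Log2 fold change (deleted minus control, horizontal axis) of Cebpg and the 36 measured ATF4 response genes, with 95% intervals from limma and colours by role. The dashed line marks the Cebpg estimate of 0.73, which the intervals of 33 members do not reach.

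Among the regulators and feedback genes, 9 of 9 were measured and none passed, with a median log2 fold change of 0.04. Ddit4, which encodes the mTORC1 inhibitor REDD1, read 7.08, 7.13 and 6.92 in deleted samples and 6.59, 6.75 and 6.75 in controls. All deleted values were above all controls, and the log2 fold change was 0.34 ± 0.11 (SE, limma adjusted p = 0.161). Vldlr, a lipoprotein receptor gene and ATF4 target, read 8.31, 8.40 and 8.45 in deleted samples, against 7.23, 8.29 and 8.17 in controls. Control a was low, and the log2 fold change of 0.49 ± 0.24 (SE, limma adjusted p = 0.362) became 0.16 without it. Nupr1, which encodes a small stress-induced chromatin protein, read 6.54, 6.73 and 6.86 in deleted samples and 6.88, 6.95 and 6.93 in controls, with every deleted value below every control (log2 fold change -0.21 ± 0.11 SE, limma adjusted p = 0.400). Without deleted a the log2 fold change of Nupr1 was -0.13.

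The remaining feedback genes lay near 0. Sesn2, a leucine sensor and mTORC1 inhibitor, had a log2 fold change of 0.12, and Ppp1r15a, which encodes the GADD34 subunit that restores eIF2α, had 0.04. Trib3, the pseudokinase that restrains ATF4, had 0.02 and Chac1, which degrades glutathione, had 0.01. For all 4, the deleted and control values overlapped. These genes are commonly used as readouts of ATF4 activity. Trib3 and Sesn2, however, averaged below 6.20, the median of all values, and Chac1 read 6.41 to 6.66, not far above it. Whether the 4 transcripts lay above background was not tested, so their small fold changes do not show whether ATF4 activity was unchanged.

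Of the amino acid and one-carbon enzymes, 9 of 10 were measured and none passed, with a median log2 fold change of 0.05. Phgdh, the first enzyme of serine synthesis, had the smallest p of all members. It read 8.43, 8.64 and 8.30 in deleted samples and 7.71, 8.13 and 8.02 in controls. The genotypes did not overlap, and the log2 fold change was 0.51 ± 0.14 (SE, 95% interval 0.20 to 0.82, limma adjusted p = 0.116), or 1.42-fold. Over the alternative settings its adjusted p lay between 0.0767 and 0.276. The later enzymes of the same pathway differed in sign from each other, with log2 fold changes of 0.11 for Psat1 and -0.10 for Psph.

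Cth, which makes cysteine from cystathionine, read 5.49, 5.53 and 5.29 in deleted samples and 5.38, 5.19 and 4.97 in controls (log2 fold change 0.26 ± 0.13 SE, limma adjusted p = 0.385). All its values lay below 6.20, the median of all values in the table, and no detection call was used here. Without control c the log2 fold change of Cth was 0.15. Cbs, which acts just before it, had a log2 fold change of 0.01. Mthfd2, a mitochondrial folate enzyme, read 7.15, 7.66 and 7.28 in deleted samples and 7.18, 6.56 and 7.43 in controls. Control b was low, and the log2 fold change of 0.31 ± 0.21 (SE, limma adjusted p = 0.541) became 0.06 without it. Asns, the asparagine synthetase and a classic ATF4 target, read 7.02, 7.13 and 7.38 in deleted samples and 7.07, 7.12 and 7.30 in controls, with a log2 fold change of 0.01 (95% interval -0.27 to 0.29).

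Shmt2, Aldh18a1 and Asns are described by array although the naming rule did not ask for it, having been chosen after their values were seen. Shmt2, the mitochondrial serine hydroxymethyltransferase, read 8.47, 8.18 and 8.41 in deleted samples and 8.79, 8.47 and 7.65 in controls. Its log2 fold change of 0.05 ± 0.25 (SE) became -0.28 without control c. Aldh18a1, which starts proline synthesis from glutamate, read 7.64, 6.60 and 7.38 in deleted samples and 7.40, 7.13 and 7.34 in controls. Its log2 fold change of -0.08 ± 0.23 (SE) became 0.22 without deleted b. In both genes leaving out 1 array changed the sign.

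All 8 amino acid transporters were measured and none passed, with 4 positive and 4 negative log2 fold changes and a median of -0.10. Slc1a5, the glutamine transporter ASCT2, read 8.12, 7.87 and 7.89 in deleted samples and 8.36, 8.93 and 8.19 in controls. The deleted values lay below all controls, with a log2 fold change of -0.53 ± 0.18 (SE, limma adjusted p = 0.193) that was -0.31 without control b. Slc7a1, a transporter of arginine and lysine, read 7.53, 7.35 and 7.63 in deleted samples and 7.72, 7.68 and 7.70 in controls, again without overlap (log2 fold change -0.20 ± 0.11 SE, limma adjusted p = 0.423). Slc38a2, the SNAT2 carrier of small neutral amino acids, read 9.65, 9.54 and 9.69 in deleted samples and 9.98, 10.14 and 9.56 in controls, and overlapped (log2 fold change -0.27 ± 0.15 SE, limma adjusted p = 0.426). It was -0.15 without control b and -0.44 without control c, and Slc7a1 was -0.12 without deleted b.

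The remaining transporters had larger p-values. Slc6a9, a glycine transporter, had a log2 fold change of -0.22. Slc1a4, which carries serine and alanine, had 0.20, and the cystine transporter Slc7a11, with 2 motif copies in its promoter, had 0.15. Both read below 6.20 on all 6 arrays. Slc3a2 and Slc7a5, whose products form the LAT1 leucine transporter, had 0.17 and 0.00.

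Of the aminoacyl-tRNA synthetases, which charge tRNAs with their amino acids, 10 of 12 were measured and none passed. Positive log2 fold changes were found for 9 of the 10, with a median of 0.19 beside 0.03 for all genes tested. Yars, the tyrosine enzyme, read 8.06, 8.06 and 8.09 in deleted samples and 7.79, 7.78 and 7.79 in controls. The groups were tight and did not overlap, and the log2 fold change was 0.28 ± 0.09 (SE, limma adjusted p = 0.186), or 1.21-fold. Sars, the serine enzyme, read 8.96, 9.15 and 9.09 in deleted samples and 8.67, 8.88 and 8.74 in controls, without overlap (log2 fold change 0.30 ± 0.11 SE, limma adjusted p = 0.205). Tars, the threonine enzyme, read 8.07, 8.06 and 8.02 in deleted samples and 7.99, 7.75 and 7.84 in controls, also without overlap (log2 fold change 0.19 ± 0.10 SE, limma adjusted p = 0.430).

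Nars, the asparagine enzyme, was the fourth of the 10 whose genotypes did not overlap (log2 fold change 0.20). All 4 were higher in deleted samples, which is 40.0% of the 10 measured. Of all genes tested, 12.5% were higher in deleted samples without overlap. The other log2 fold changes were 0.27 for Cars, 0.19 for Lars, 0.17 for Gars, 0.13 for Iars, 0.09 for Wars and -0.10 for Eprs. Leaving out 1 array moved several synthetases in both directions. At the lowest, Cars was 0.10 without deleted c, and Lars 0.09 and Gars 0.10 without control b. Nars was 0.11 without deleted a, and Iars 0.02 without control c. At the highest, Cars was 0.38 and Gars 0.27 without control c. Lars was 0.26 and Iars 0.20 without control a, and Nars 0.26 without deleted b. None of these genes changed sign when 1 array was left out. Cyclic loess normalization lowered most of the synthetases. With it Lars was 0.11, Gars 0.10, Iars 0.10, Nars 0.14, Sars 0.24, Tars 0.17, Yars 0.26 and Eprs -0.18, while Cars was 0.28 and Wars 0.09. The other row of Iars gave 0.06, against 0.13 for the row kept. Medians over the 10 synthetases, relative to the control mean of each gene, were 0.20, 0.10 and 0.24 on deleted arrays a, b and c, and between -0.09 and 0.00 on control arrays.

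**Figure D3:**
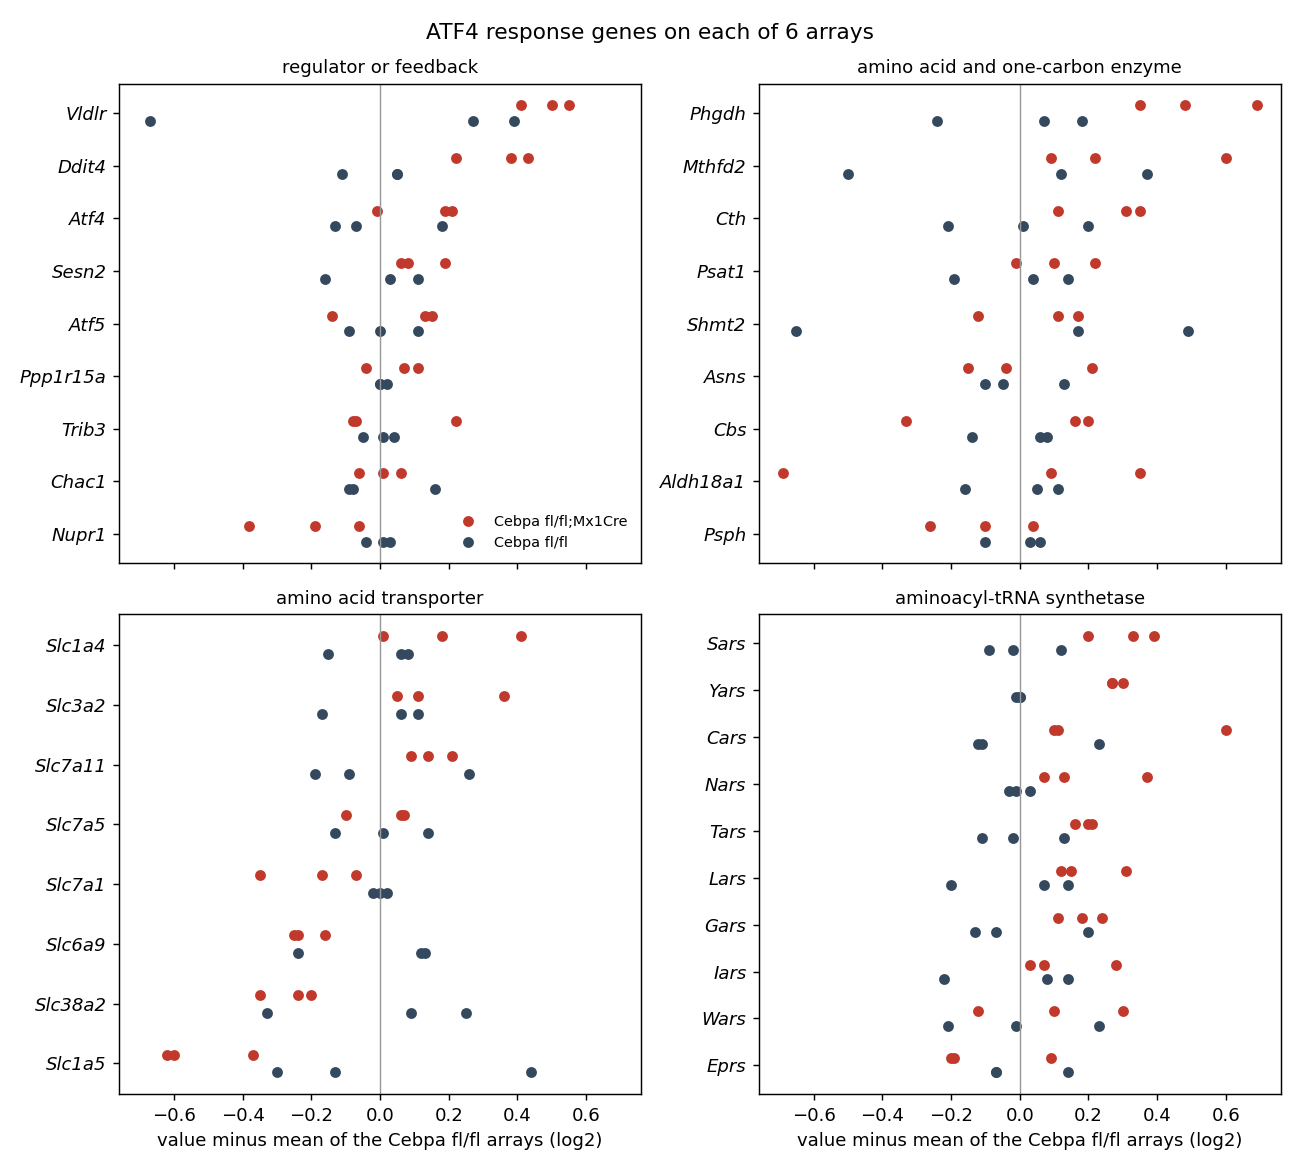
Value on each array minus the mean of the 3 control arrays (log2, horizontal axis) for the 36 measured ATF4 response genes in 4 role groups, with deleted points above control points for each gene. Single arrays stand apart for Vldlr, Mthfd2, Shmt2 and Aldh18a1, while Yars separates by genotype with a small difference.

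Over all members, the genotypes did not overlap for 10 of 36 (27.8%), beside 21.2% of all genes tested. Of these, 7 were higher in deleted samples and 3 were lower. Of all genes tested, 12.5% were higher without overlap and 8.68% were lower without overlap. The 7 were Ddit4, Vldlr, Phgdh, Yars, Sars, Tars and Nars, and the 3 were Nupr1, Slc1a5 and Slc7a1. The range over the 3 mice of a genotype had a median over members of 0.25 in deleted samples and 0.27 in controls. The members' absolute log2 fold change had a median of 0.17. A range of single mice is not the error of a difference of means, for which the standard errors ran from 0.09 to 0.25.

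Other genes of the pathway did not pass either. The 7 lists of such genes held 117 that were neither members nor C/EBP factors, and of these 107 were measured. With limma 0 passed in either direction, beside 1.43% of all genes tested. An unadjusted limma p under 0.05 was found for 19 (17.8%), near the 15.9% of all genes tested, with 10 of them higher and 9 lower. The median log2 fold change of the 107 was 0.02. The list of the eIF2α kinases and their machinery, 11 of 13 measured, had a median of 0.15. Impact, an inhibitor of the amino acid sensing kinase GCN2, had the smallest p there (log2 fold change -0.49 ± 0.18 SE, limma adjusted p = 0.218), and the 4 kinase genes Eif2ak1, Eif2ak2, Eif2ak3 and Eif2ak4 had log2 fold changes of 0.18, 0.31, 0.13 and 0.03. Of these, Eif2ak2, which encodes the double-stranded RNA sensor PKR, did not overlap between genotypes but did not pass (limma adjusted p = 0.255). Of 19 measured genes linked to ATF4 in other ways, Cebpb among them, Cebpb had the smallest p and the median was -0.01.

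Cytosolic synthetases and cofactors outside the list, 10 of 11 measured, had a median of 0.10, led by Aimp1, a scaffold of the synthetase complex (log2 fold change 0.36 ± 0.12 SE, limma adjusted p = 0.196). The mitochondrial synthetases, 16 of 17 measured, had a median of 0.01, and Hars2 had the smallest p (log2 fold change -0.43 ± 0.15 SE, limma adjusted p = 0.193). Among 22 other amino acid transporters the median was -0.03, and Slc6a6, the taurine transporter, came closest to passing (log2 fold change -0.55 ± 0.14 SE, limma adjusted p = 0.103, but 0.0450 without control c). Other enzymes of serine, one-carbon and proline metabolism, 13 of 18 measured, had a median of 0.03, led by Gcsh of the glycine cleavage system (log2 fold change 0.41 ± 0.13 SE, limma adjusted p = 0.154). The 17 endoplasmic reticulum genes of the unfolded protein response had a median of 0.00, and Pdia4, a disulphide isomerase, had the smallest p (log2 fold change 0.43 ± 0.13 SE, limma adjusted p = 0.162).

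**Figure D4:**
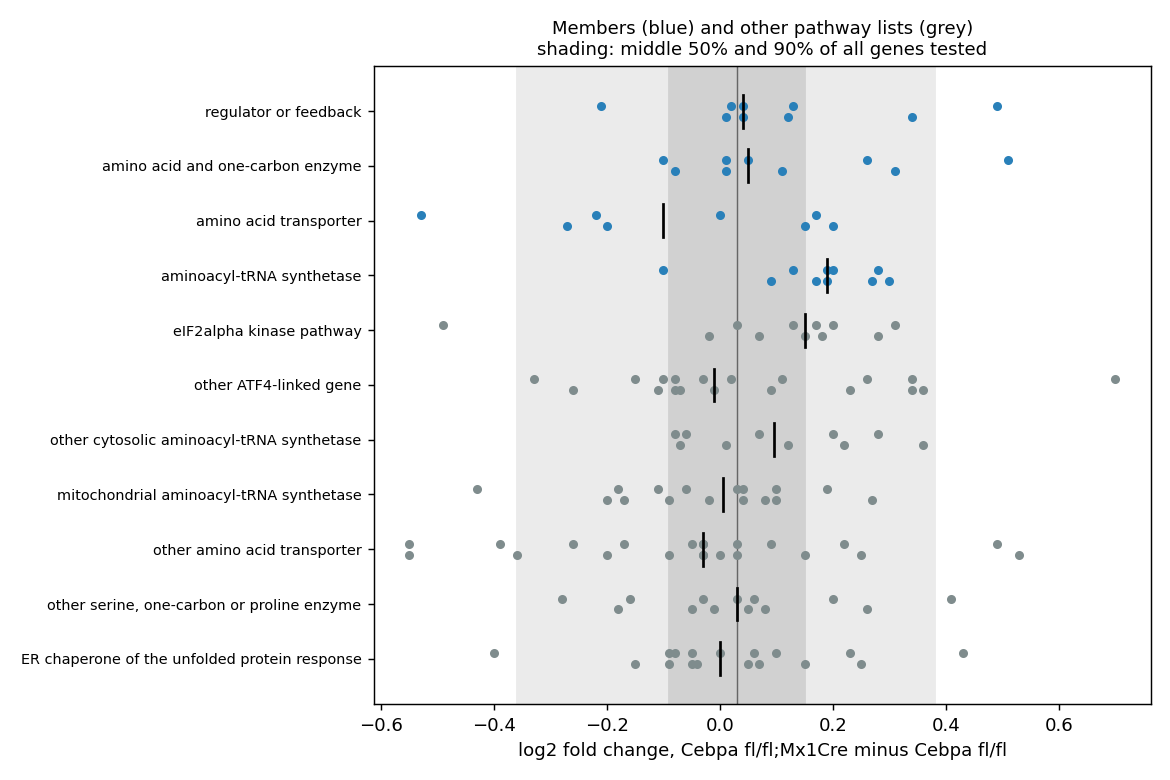
Log2 fold change (deleted minus control, horizontal axis) of each measured gene in the 4 role groups of members (blue) and 7 other pathway lists (grey), with a black bar at each median. Shading marks the middle 50% (-0.09 to 0.15) and 90% (-0.36 to 0.38) of single genes over all genes tested, a spread that does not apply to the medians, which are 0.19 for the member synthetases and -0.10 for the member transporters.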

How the data were processed

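RNA of LSK CD150- cells from 6 mice was amplified from 20 ng of total RNA and hybridised to 1-colour arrays, per the labels' protocols. The deposited table holds log2 values, 1 row per probe set, used as the authors left them. The submitters' processing notes list RMA and Expression Console 1.1.2 without settings. Of 35556 rows (2.17 to 14.57), 21789 name 1 gene in the platform annotation, giving 19938 genes with no filter on dim rows.

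limma 3.58.1 (R 4.3.3; lmFit, eBayes, no block) compared the genotypes two-sided, and p-values were adjusted over all genes by Benjamini-Hochberg. The fit was tested on simulated data with changes larger than that of Cebpg or any member, so smaller changes were not covered. The number of arrays limits the precision. Members, lists and rules were chosen with earlier results of these data known. Array values are printed for Atf4, for the 3 members with the smallest p per role and for exceptions named in the text. Pathway genes named have the smallest p of their list, except the 4 kinase genes, chosen after their values were seen. Promoter stretches, from RefSeq, follow the largest absolute fold change among motif holders, leaving out chromosome 18. They were shortened to 30 bases, or to the 250 before the start for 3 genes, because the window's last 50 are transcribed. Alternatives were other priors, filters, normalizations, row means, a replicate block, array weights and leaving out each array. The main fit did not pair samples by title letter, and whether same-lettered samples belong together was not established.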

Additional observations from a re-analysis of the deposited data

How the results depend on the processing

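No member gene passed in either direction under any of the 16 alternatives, which gave 568 values for 36 members with adjusted p-values of 0.0767 or above. The sign differed in 25 of these values, for 9 members, each with an absolute log2 fold change of at most 0.09 as reported. Keeping genes at or above the 25th percentile, or the median, of mean level left 34 and 30 members. The members' median log2 fold change lay between 0.05 (without control b) and 0.16 (without deleted b) when single arrays were left out, and between 0.09 and 0.12 otherwise. The count of other pathway genes that passed was 0 to 1 when single arrays were left out, with Slc6a6 passing without control c. The fold change of Cebpg lay between 0.63 and 0.80 without single arrays, at adjusted p-values of 0.0442 to 0.0881, the call being lost without control b, deleted a, deleted b or deleted c. The cause was not tested, beyond there being fewer samples. Over all genes, 286 passed, against 438 when genes dimmer than the median gene were removed. The count was 145, 84 and 143 without deleted a, deleted b and deleted c. It was 126, 53 and 250 without control a, control b and control c. Same-lettered deviations from the genotype means correlated at -0.01, -0.04 and 0.06, and with the title letter as a replicate block Cebpg kept 0.73 (adjusted p = 0.0297), 274 genes and no member passed. Without detection calls, signal over background limits Cth, Slc1a4 and Slc7a11. Trib3, Sesn2 and Slc6a9 also averaged below 6.20 over all arrays, at 6.01, 6.11 and 6.04. Detection of the other members was not tested either.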
